A study of Rattus norvegicus with 24 samples.

Results

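The genes described here are 40 genes of NF-kappa B, TNF and Toll-like receptor signalling, picked by name to cover the ligands, receptors, adaptors, kinases, subunits and inhibitors of these pathways together with genes that they induce. Of the 40 genes, 37 were matched by rat Entrez identifier to the count tables, which hold 17334 genes. Rel, Relb and Tnfaip3 were not analysed here. A further gene, Il6, was too low for the filter on low counts, so 36 genes were tested. They were split into 3 induced targets (Nfkbia, Icam1 and Birc3) and 33 others, called components here. The components include genes that are themselves induced, such as Cebpb, Socs3 and Nfkbie.

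Left kidneys were sequenced whole, as RNA, from 24 rats of the PKD/Mhm (Cy/+) strain, all male and aged 8 months. These rats are heterozygous for a missense mutation of Anks6 and develop cystic kidneys. Per the labels every group carried this mutation, Ctrl included, and no animal without it was used here. According to the study's methods, heterozygous rats were told from non-cystic ones by feeling the abdomen, and the counts hold no genotype with which to check the label. The Ctrl group of 6 rats received none of the treatments named in the labels, and whether a vehicle was given is not stated in the sources used here. The ipABCB5 group of 6 rats received 2000000 human skin-derived ABCB5+ stromal cells intraperitoneally every month for 6 months, and the ivABCB5 group of 6 rats received the same cells intravenously. The CoCM group of 6 rats received conditioned medium monthly for 6 months, taken from a co-culture of ABCB5+ cells with macrophages derived from THP-1, a human monocytic leukaemia line, that had been stimulated with interferon gamma and lipopolysaccharide. The route of the medium is given differently by different sources. The labels number the Ctrl rats between 1 and 24 and all others between 26 and 43, so any order that these numbers stand for and the treatment cannot be told apart.

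NF-kappa B is a family of dimeric transcription factors held inactive in the cytoplasm by inhibitor proteins of the I kappa B family. Binding of TNF, interleukin 1 or microbial products to their receptors recruits adaptors and ubiquitin ligases, which activate the I kappa B kinase complex, and the phosphorylated inhibitor is then degraded so that the factor can enter the nucleus. Among the genes it switches on are its own inhibitors, which close a negative feedback loop, and in the kidney both infiltrating leukocytes and the tubular and endothelial cells use the pathway. Activity of the pathway is set by phosphorylation and degradation of proteins, which transcript levels do not measure.

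Estimated read counts summed to between 9304630 and 14125457 per library, and levels are given below as CPM (the count as a share of the scaled library size, times a fixed factor), unless TPM, its counterpart corrected for transcript length, is named. In a principal component analysis of all genes, members included, 4 libraries stood apart, with scores of 80.8 to 97.4 on component 1, which held 56.3% of the variance. These were CoCM animal 39, i.p. ABCB5+ animal 38 and i.v. ABCB5+ animals 36 and 37, and the highest score among the other 20 was 11.5, in Ctrl animal 24. Kidney segment markers were present in every library. Their summed level was 19820 to 22633 CPM in the 4 libraries and 4622 to 14053 CPM in the other 20, though only 2 of the 8 markers were above all the others. The sum of 12 macrophage markers was 189 to 599 CPM in the 4 libraries against 1231 to 3263 CPM in the others, and all 12 were below. The sum of 11 lymphocyte markers was 17.8 to 52.8 CPM against 179 to 428 CPM, with Cd79b and Ms4a1 at or near 0 in the 4 libraries. The sum of 8 genes of injured tubules, led by Spp1, was 855 to 1401 CPM against 8493 to 16303 CPM. The part that these cell types play in the results below was not tested, and in whole kidney fewer cells of a type and less RNA per cell cannot be told apart. The 4 libraries, all from treated animals with consecutive numbers, are labelled Cy/+ like the rest. Their genotype and cyst load were not checked here, so a fold change that rests on them and a treatment effect cannot be told apart. For most members described, fold changes are therefore also given without the 4 libraries, which were singled out with their values known.

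No member of the pathway differed between any treatment and Ctrl after adjustment for all 12778 genes tested. The members were lower in value more often than genes in general, by a small amount. In the CoCM group 25 of 36 members lay below Ctrl (69.4%, against 48.6% of all genes tested), with a median log2 fold change of -0.11. The i.p. group had 28 of 36 members below Ctrl (77.8%, against 49% of all genes) and a median of -0.10. The i.v. group also had 28 of 36 below (against 47.4% of all genes) and a median of -0.14. The median over all genes tested was between 0.00 and 0.01 in these comparisons, and the 3 comparisons share the same 6 Ctrl animals.

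By edgeR's quasi-likelihood test with Benjamini-Hochberg adjustment, 0 members passed an adjusted p of 0.05 in the CoCM comparison, where 0.00783% of all genes passed. The corresponding share of all genes was 0% in the i.p. and i.v. comparisons, in the comparison of both routes and in the test over the 4 groups. DESeq2 likewise called 0 members in each comparison, where it called 0.607% of all genes for CoCM, 0.0065% for i.p., 0.0065% for i.v. and 0.013% between the routes. Before adjustment, edgeR gave p under 0.05 for 1 member in CoCM (Il1r1, against 11.9% of all genes), 0 in i.p. (1.77% of all genes), 1 in i.v. (Cebpb, 5.78%), 1 between the routes (Cebpb, 2.14%) and 2 over the 4 groups (Cebpb and Il1r1, 4.71%). The count by DESeq2 before adjustment was 3, 0, 1 and 1 in the comparisons of pairs of groups. The share of all genes with such a p by DESeq2 was not computed, so these counts have no baseline. By edgeR the shares of members were not above those of all genes in CoCM, i.p. and i.v.

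Without the 4 libraries that stood apart, the lower values were no longer in excess. The members below Ctrl numbered 19 of 36 in CoCM (52.8%, against 50.7% of all genes), 16 of 36 in i.p. (44.4%, against 49.9%) and 8 of 36 in i.v. (22.2%, against 51.7%). The median log2 fold changes became -0.02, 0.01 and 0.07, so that in the i.v. group the members were on balance above Ctrl in place of below. Direction turned for 10 of 36 members in CoCM (8 from below to above Ctrl), for 12 in i.p. and for 20 in i.v., in both of these all from below to above. Again 0 members passed the adjusted threshold in any comparison, by edgeR. Before adjustment, p was under 0.05 for 6 members in CoCM (Il1r1, Ripk1, Tlr4, Birc2 and Traf6 below Ctrl and Traf2 above it, where 16.9% of all genes had such a p), for 0 in i.p. (1.39% of all genes) and for 2 in i.v. (Cebpb and Nfkbia, both above Ctrl, 1.23% of all genes).

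**Figure D1:**
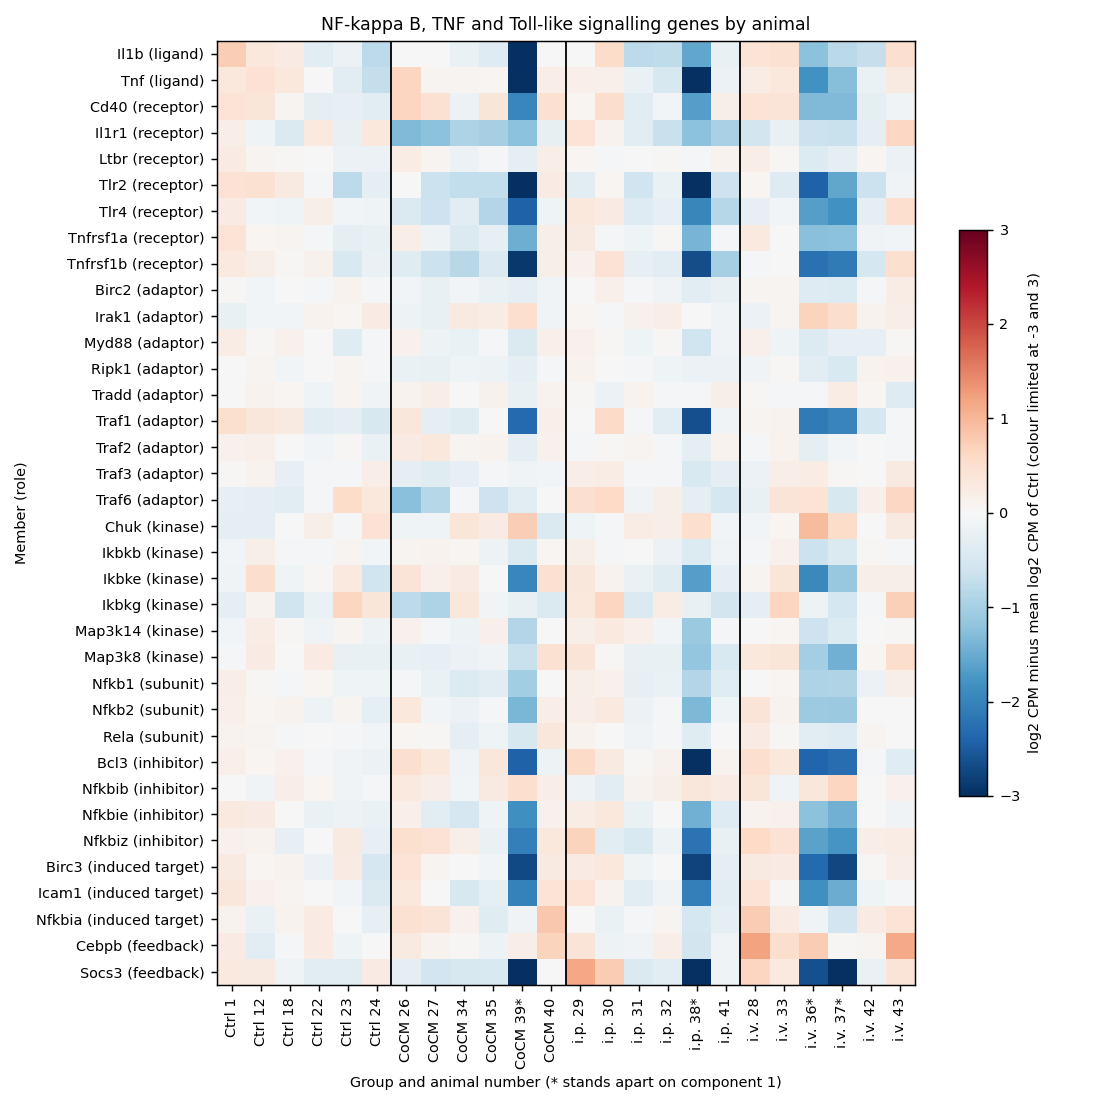
Level of each of the 36 members tested (rows, with role) in each animal (columns, by group and animal number), as log2 CPM minus the mean log2 CPM of Ctrl, with the colour limited 3 units either side of 0. The dark blue columns are the libraries marked with a star (CoCM 39, i.p. 38, i.v. 36 and 37), in which 22 of the 36 members were below all the other 20 animals.

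In Ctrl kidneys the levels per transcript length, in TPM, spanned a wide range. Nfkbia, the inhibitor I kappa B alpha, was the most abundant member at 200 ± 23.8 TPM (SD, n = 6). It was followed by the lymphotoxin beta receptor Ltbr at 126 ± 10.6 TPM and the type 1 TNF receptor Tnfrsf1a at 123 ± 15.4 TPM, which overlapped each other. The transactivating subunit Rela stood at 77.5 ± 6.56 TPM and the adhesion molecule Icam1 at 74.2 ± 11.3 TPM, which also overlapped. At the low end were Tlr4 at 4.94 ± 0.47 TPM, the ubiquitin ligase Traf6 at 4.55 ± 1.52 TPM, Tnf at 1.85 ± 0.51 TPM and Il6 at 0.679 ± 0.637 TPM. Il1b stood at 18.5 ± 6.05 TPM, above the receptors Tnfrsf1b, Il1r1, Cd40, Tlr2 and Tlr4 in mean, so that among the ligands only Tnf and Il6 were at the low end.

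Of the ligands, Tnf, which starts the cascade through its receptors, had a lowest, median and highest level of 1.23, 2.24 and 2.72 CPM in Ctrl, 0.228, 2.13 and 3.16 CPM in CoCM, 0.242, 1.76 and 2.25 CPM with i.p. cells and 0.570, 2.06 and 2.52 CPM in i.v. Its lowest values in the treated groups all belonged to libraries that stood apart, and the groups overlapped otherwise. The log2 fold changes of Tnf were -0.04 ± 0.43 (SE), -0.35 ± 0.43 and -0.25 ± 0.43 in the order CoCM, i.p. and i.v., and 0.17 ± 0.21, -0.14 ± 0.21 and 0.11 ± 0.22 without the 4 libraries. Il1b, an inflammasome-processed cytokine mostly made by myeloid cells, ran from 8.48 to 24.7 CPM in Ctrl, 1.71 to 14.9 CPM in CoCM, 4.97 to 21.7 CPM with i.p. cells and 6.27 to 20.7 CPM in i.v., with overlap in each case. Its log2 fold changes were -0.41 ± 0.41 (SE), -0.39 ± 0.41 and -0.14 ± 0.41, none past the test, and without the 4 libraries -0.19 ± 0.28, -0.23 ± 0.28 and 0.16 ± 0.29. Il6 had at most 3 counts in 9 of 24 animals, 0 in 2 of them and no more than 17 in any. A count of 3 corresponds to 0.322 CPM in the smallest library, so that a difference in Il6 was not detectable at this depth.

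Among the receptors, Il1r1, the signalling receptor of interleukin 1, had the smallest p-value of all members in the CoCM group. Its lowest, median and highest levels were 10.3, 14.1 and 17.3 CPM in Ctrl and 5.57, 6.42 and 11.6 CPM in CoCM. In the CoCM group 5 of 6 animals lay below the whole Ctrl range, and animal 40 lay within it. The i.p. group ran from 5.94 to 18.3 CPM with a median of 9.89 CPM, and the i.v. group from 8.74 to 21.4 CPM with a median of 10.4 CPM, both across the Ctrl range. The log2 fold change in CoCM was -0.97 ± 0.27 (SE), with an unadjusted p of 0.00164 and an adjusted p of 0.226 by edgeR (0.0583 by DESeq2), so it did not pass over all genes. Without CoCM animal 39 and the other libraries that stood apart it was -0.93 ± 0.27, with an adjusted p of 0.216. Il1r1 is expressed by endothelial cells and fibroblasts as well as by leukocytes. Beside it, all 6 endothelial markers were lower in value in CoCM, 3 of them with an unadjusted p under 0.05 (Cdh5, Kdr and Tek), where 48.6% of all genes were lower and 11.9% had such a p. Their sum was 320 to 639 CPM in CoCM and 531 to 625 CPM in Ctrl. Of the 7 fibroblast markers 6 were lower in value, and their sum was 368 to 2186 CPM in CoCM and 827 to 2535 CPM in Ctrl. Their part in the value of Il1r1 was not tested, nor was the difference between CoCM and the cell-treated groups.

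No other receptor had an unadjusted p under 0.05 in the fit over all animals, although several were lower in value. Tlr4 was below the Ctrl range in 5 of 6 CoCM animals, 4 of 6 i.p. animals and 4 of 6 i.v. animals, and above it in 0, 1 and 1. Tlr2 and Tlr4, which recognise bacterial lipoproteins and lipopolysaccharide, had log2 fold changes of -0.62 ± 0.49 and -0.64 ± 0.38 in CoCM, -0.59 ± 0.49 and -0.31 ± 0.37 with i.p. cells and -0.68 ± 0.49 and -0.38 ± 0.37 in i.v. Tnfrsf1b, the TNF receptor found mainly on immune and endothelial cells, had values of -0.61 ± 0.46, -0.35 ± 0.46 and -0.44 ± 0.46. The more widely expressed Tnfrsf1a had values of -0.24 ± 0.29, -0.15 ± 0.29 and -0.30 ± 0.29. With the 4 libraries left out, Tlr4 was -0.003 ± 0.21 and Tnfrsf1b -0.01 ± 0.24 in i.v., and -0.12 ± 0.20 and -0.13 ± 0.23 with i.p. cells. In CoCM Tlr4 was -0.47 ± 0.20 with an unadjusted p of 0.0291 and an adjusted p of 0.260. Tnfrsf1b was then -0.41 ± 0.23 in CoCM, Tlr2 -0.38 ± 0.23, -0.37 ± 0.23 and -0.31 ± 0.25 in the 3 comparisons, and Tnfrsf1a -0.09 ± 0.13, 0.02 ± 0.13 and 0.01 ± 0.14. Ltbr, which feeds the non-canonical pathway, lay between -0.09 and 0.01 in the 3 comparisons. Cd40, a receptor of antigen-presenting cells, lay between -0.24 and 0.14, and without the 4 libraries between 0.07 and 0.34.

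The 9 adaptors and ligases that link receptors to kinases had no unadjusted p under 0.05 in the fit over all animals, and Traf6 and Traf1 had the largest values. Myd88, the adaptor of Toll-like and interleukin 1 receptors, and Irak1, its kinase partner, had log2 fold changes of -0.09 ± 0.12 and 0.10 ± 0.13 in CoCM, -0.10 ± 0.12 and 0.04 ± 0.13 with i.p. cells and -0.14 ± 0.12 and 0.25 ± 0.13 in i.v. Without the 4 libraries Myd88 was at -0.04 ± 0.10, -0.01 ± 0.10 and -0.05 ± 0.11, and Irak1 at -0.004 ± 0.10, 0.05 ± 0.10 and 0.05 ± 0.10. Tradd and Ripk1, which bind the activated TNF receptor, and the ligases Traf2, Traf3 and Birc2 lay between -0.19 and 0.10 in all 3 comparisons. Birc2 was the only member whose groups did not overlap. Its lowest, median and highest levels were 44.6, 46.7 and 50.3 CPM in Ctrl and 38.3, 42.1 and 44.3 CPM in CoCM, so that all 6 CoCM animals lay below all 6 Ctrl animals, by a narrow margin. The log2 fold change of Birc2 was -0.17 ± 0.10, with an unadjusted p of 0.095 and an adjusted p of 0.465. In CoCM 0.524% of all genes lay wholly below Ctrl and 0.853% wholly above it. No member did so in the other comparisons, where the shares of all genes were 0.047% below and 0% above in i.p., 0.0548% below and 0.0548% above in i.v., and 0.0313% each way between the routes. Birc2 and Birc3 are close paralogs between which the authors' estimation divides shared reads, so their separate values carry that uncertainty. Traf6, the ligase of the Toll-like and interleukin 1 branch, had -0.49 ± 0.24 in CoCM at a low level of 3.46 to 8.16 CPM (Ctrl 6.69 to 12.2 CPM), with an unadjusted p of 0.0533. Traf6 without the 4 libraries was at -0.54 ± 0.25 (unadjusted p of 0.0460, adjusted p of 0.287). Traf1, induced in lymphocytes, was at -0.53 ± 0.44 in i.v., where 3 of 6 animals lay below the Ctrl range, and at -0.13 ± 0.22 without the 4 libraries.

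Of the 6 members classed here as kinases, which act upstream of NF-kappa B and include the regulatory subunit Ikbkg, 0 had an unadjusted p under 0.05 against Ctrl over all animals. Ikbkb, the catalytic subunit of the canonical pathway, had lowest, median and highest levels of 83.1, 85.5 and 99.3 CPM in Ctrl, 65.0, 91.7 and 95.6 CPM in CoCM, 65.9, 84.1 and 99.8 CPM with i.p. cells and 56.3, 86.4 and 95.8 CPM in i.v. Its medians differed by less than the Ctrl range. Chuk, the catalytic subunit of the non-canonical pathway, had log2 fold changes of 0.13 ± 0.19, 0.10 ± 0.19 and 0.32 ± 0.19, and without the 4 libraries -0.03 ± 0.14, 0.02 ± 0.14 and 0.04 ± 0.15. Ikbkg, the regulatory subunit, was low at 2.59 to 8.09 CPM over all animals and lay between -0.35 and 0.08. Map3k14, which activates Chuk, lay between -0.14 and -0.04, and Map3k8, a kinase that binds the Nfkb1 precursor, between -0.21 and -0.04. Ikbke, a kinase of the interferon branch, lay between -0.26 and 0.02. All 6 members of this class were, without the 4 libraries, above Ctrl in i.v., with a median of 0.10, and the largest was Map3k8 at 0.31 ± 0.17.

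The 3 subunits analysed were lower in value in each comparison over all animals, without passing the test, and this direction held in part only without the 4 libraries. Nfkb1 had lowest, median and highest levels of 130, 142 and 165 CPM in Ctrl, 69.2, 119 and 143 CPM in CoCM, 77.8, 122 and 160 CPM with i.p. cells and 74.8, 135 and 161 CPM in i.v. Below the Ctrl range were 4 of 6 CoCM animals, 4 of 6 i.p. animals and 3 of 6 i.v. animals, and none of the treated animals lay above it. Its log2 fold changes were -0.30 ± 0.20, -0.19 ± 0.20 and -0.24 ± 0.20, and without the 4 libraries -0.20 ± 0.11, -0.08 ± 0.11 and 0.01 ± 0.12. Nfkb2, the subunit of the non-canonical pathway, had log2 fold changes of -0.11 ± 0.28, -0.12 ± 0.28 and -0.18 ± 0.28. Nfkb2 without the 4 libraries was above Ctrl in each comparison, at 0.04 ± 0.12, 0.04 ± 0.12 and 0.13 ± 0.13. Rela lay within 0.06 of Ctrl on the log2 scale over all animals, below it in each comparison (SE 0.12), and above it without the 4 libraries (0.01 ± 0.09, 0.003 ± 0.09 and 0.08 ± 0.10).

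The inhibitor proteins differed in sign, and none passed the test. Nfkbib, a constitutive inhibitor, had log2 fold changes of 0.23 ± 0.12 in CoCM, 0.07 ± 0.12 with i.p. cells and 0.24 ± 0.12 in i.v., with unadjusted p of 0.0731, 0.549 and 0.0601, and without the 4 libraries 0.17 ± 0.11, 0.02 ± 0.11 and 0.10 ± 0.11. The inducible inhibitor Nfkbie had -0.31 ± 0.31, -0.17 ± 0.31 and -0.30 ± 0.31, and without the 4 libraries -0.14 ± 0.14, 0.002 ± 0.14 and 0.02 ± 0.15. Bcl3 and Nfkbiz, nuclear proteins of the same family that act as co-regulators, lay between -0.33 and 0.04 with SE of 0.42 to 0.49. Bcl3 without the 4 libraries was above Ctrl in each comparison, at 0.19 ± 0.15, 0.23 ± 0.15 and 0.13 ± 0.16, and Nfkbiz was at 0.24 ± 0.18, -0.05 ± 0.18 and 0.36 ± 0.19. Bcl3 ran from 6.42 to 90.2 CPM with i.p. cells and from 54.1 to 68.0 CPM in Ctrl.

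**Figure D2:**
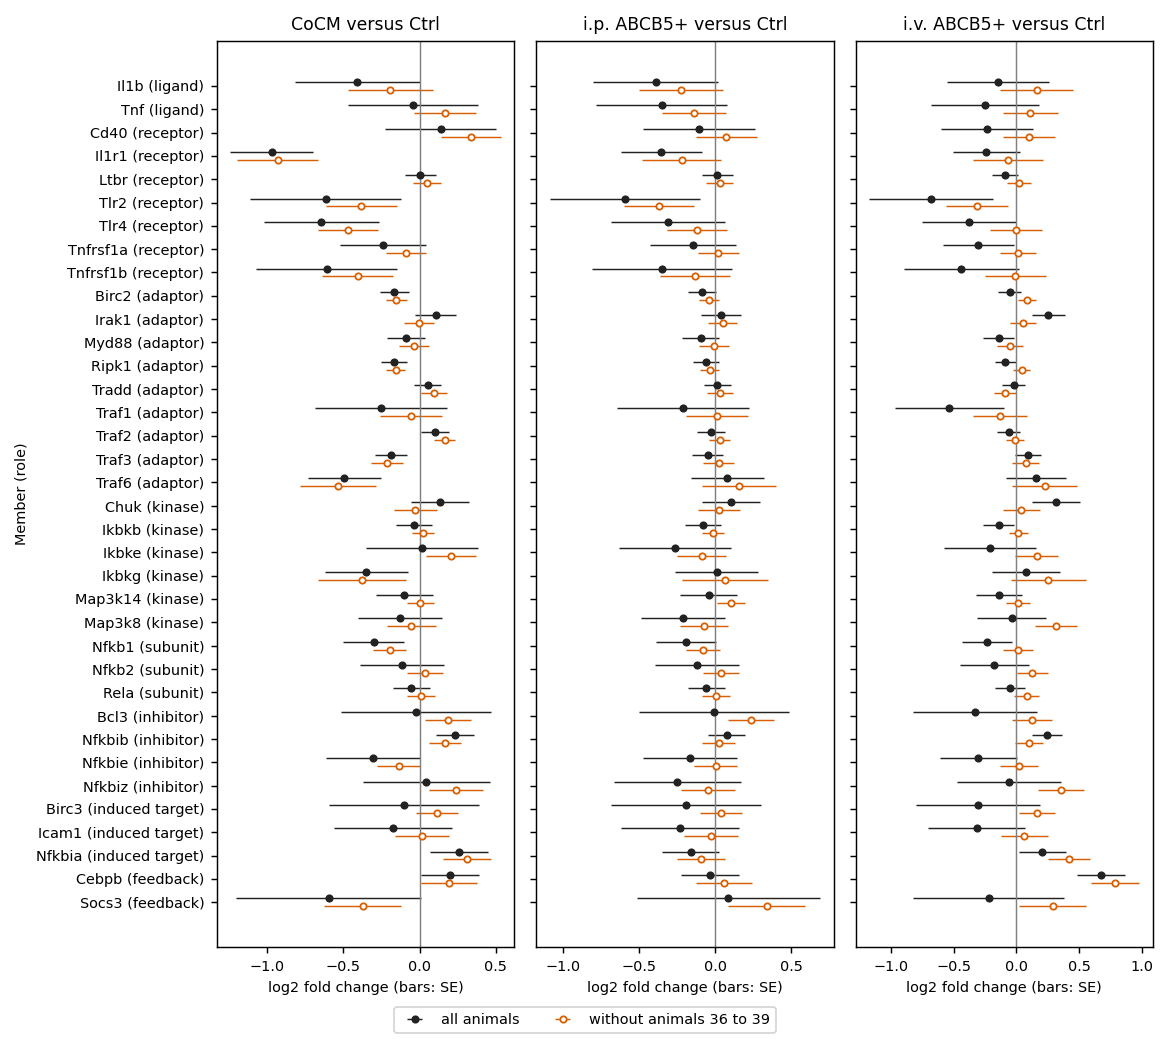
Log2 fold change of each member tested against Ctrl (points) with its standard error (bars), by treatment, from the fit over all animals (filled) and from the fit without animals 36 to 39 (open). Il1r1 in CoCM (-0.97) and Cebpb in i.v. (0.68) lie farthest from 0 relative to their errors, and the open points of i.v. lie above 0 for 28 of 36 members.

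The induced targets Nfkbia, Icam1 and Birc3 are textbook genes switched on by NF-kappa B, and they were compared with the components. The RefSeq promoter windows below (build GRCr8, the 250 bases before the annotated start, on the strand of the gene) were searched on both strands for a 10-letter kappa B consensus. It was GGGRNNYYCC, where R is A or G, Y is C or T and N is any base. The search shows which members carry this consensus close to their start. It was found in 10 of the 31 members that had a window, and in 6.33% of all 33465 windows. The 10 were Bcl3, Nfkb2, Tlr2, Il6, Nfkbia, Traf3, Nfkbie, Il1r1, Socs3 and Nfkbiz, and in Bcl3, Tlr2 and Socs3 the match reads on both strands at the same place. Birc3, Cd40, Ikbkb, Ikbke, Tradd and Traf6 were not matched to a window. Shown are Nfkbia (chr6:78597073-78597322, minus strand), Nfkbiz (chr11:58251471-58251720, plus strand), Nfkb2 (chr1:255108124-255108373, plus strand) and Bcl3 (chr1:88613556-88613805, minus strand), which belong to the feedback loop. Also shown are Il1r1 (chr9:50034133-50034382, plus strand), for its value in CoCM, and Icam1 (chr8:27829595-27829844, plus strand), an induced target with no such match in this window. The Icam1 window holds tggaaattcc, which departs from the consensus in its first base only, so the strict search does not exclude a kappa B site there. Capitals mark the match, whose first base lies 31 bases before the start in Nfkbia, 13 in Nfkbiz, 20 in Nfkb2, 38 in Bcl3 and 135 in Il1r1. A match describes the sequence and was not tested as a binding site.
Nfkbia: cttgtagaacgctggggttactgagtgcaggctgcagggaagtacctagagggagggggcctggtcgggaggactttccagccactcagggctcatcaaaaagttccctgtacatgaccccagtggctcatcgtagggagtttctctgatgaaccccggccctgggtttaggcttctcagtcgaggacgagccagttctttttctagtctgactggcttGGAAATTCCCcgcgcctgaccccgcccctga
Nfkbiz: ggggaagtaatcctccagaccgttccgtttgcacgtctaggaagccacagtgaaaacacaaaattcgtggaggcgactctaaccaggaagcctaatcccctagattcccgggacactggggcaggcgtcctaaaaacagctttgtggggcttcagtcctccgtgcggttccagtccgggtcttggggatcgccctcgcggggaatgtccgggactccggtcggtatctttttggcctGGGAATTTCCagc
Nfkb2: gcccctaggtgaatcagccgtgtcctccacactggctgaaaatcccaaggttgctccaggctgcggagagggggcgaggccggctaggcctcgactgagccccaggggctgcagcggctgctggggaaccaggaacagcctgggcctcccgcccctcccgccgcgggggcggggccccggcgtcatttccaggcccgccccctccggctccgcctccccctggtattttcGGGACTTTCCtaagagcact
Bcl3: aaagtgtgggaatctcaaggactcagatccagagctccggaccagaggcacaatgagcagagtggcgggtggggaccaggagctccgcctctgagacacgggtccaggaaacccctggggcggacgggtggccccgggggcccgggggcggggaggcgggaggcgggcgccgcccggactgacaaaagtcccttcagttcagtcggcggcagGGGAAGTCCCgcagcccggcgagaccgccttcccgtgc
Il1r1: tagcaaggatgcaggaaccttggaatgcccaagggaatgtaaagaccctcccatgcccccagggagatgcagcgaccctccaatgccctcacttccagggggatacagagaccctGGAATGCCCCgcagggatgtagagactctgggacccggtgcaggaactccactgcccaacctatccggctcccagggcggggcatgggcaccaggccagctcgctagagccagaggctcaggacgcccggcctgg
Icam1: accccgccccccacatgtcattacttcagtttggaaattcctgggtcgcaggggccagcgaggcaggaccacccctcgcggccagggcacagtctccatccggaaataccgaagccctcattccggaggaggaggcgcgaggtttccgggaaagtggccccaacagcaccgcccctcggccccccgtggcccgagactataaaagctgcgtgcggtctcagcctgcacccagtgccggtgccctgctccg

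Nfkbia, whose protein is resynthesised after each round of activation, had lowest, median and highest levels of 172, 213 and 242 CPM in Ctrl, 159, 245 and 356 CPM in CoCM, 141, 187 and 215 CPM with i.p. cells and 138, 242 and 348 CPM in i.v. Above the Ctrl range were 3 of 6 CoCM and 3 of 6 i.v. animals, but 0 of 6 i.p. animals, and all groups overlapped. The log2 fold changes were 0.26 ± 0.19 (SE) in CoCM, -0.16 ± 0.19 with i.p. cells and 0.21 ± 0.19 in i.v., with unadjusted p of 0.188, 0.402 and 0.283. Without the 4 libraries Nfkbia was 0.42 ± 0.17 in i.v. (unadjusted p of 0.0205) and 0.31 ± 0.16 in CoCM, and after adjustment over all genes neither passed.

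Icam1, the endothelial and epithelial adhesion molecule that binds leukocytes, had lowest, median and highest levels of 98.5, 136 and 170 CPM in Ctrl, 32.5, 122 and 177 CPM in CoCM, 32.3, 116 and 177 CPM with i.p. cells and 37.2, 126 and 176 CPM in i.v. Each treated group reached above and below Ctrl. Its log2 fold changes were -0.18 ± 0.39, -0.23 ± 0.39 and -0.32 ± 0.39. Without CoCM animal 39 alone the value in CoCM was 0.02, and without the 4 libraries the values were 0.01 ± 0.18, -0.03 ± 0.18 and 0.06 ± 0.19, so the direction of Icam1 in CoCM and i.v. rested on those animals.

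Birc3, an inhibitor of apoptosis and ubiquitin ligase in the TNF receptor complex, had lowest, median and highest levels of 41.1, 61.9 and 70.3 CPM in Ctrl, 8.88, 59.6 and 77.3 CPM in CoCM, 8.48, 56.0 and 73.1 CPM with i.p. cells and 8.74, 63.4 and 70.8 CPM in i.v. Apart from the libraries that stood apart, the lowest treated animal had 48.0 CPM, within the Ctrl range. The log2 fold changes were -0.10 ± 0.49, -0.19 ± 0.49 and -0.31 ± 0.49 with all animals. They were 0.11 ± 0.14, 0.03 ± 0.14 and 0.16 ± 0.15 without the 4, above 0 in place of below. Without CoCM animal 39 alone the CoCM value was 0.12, and without i.p. animal 38 alone the i.p. value was 0.03.

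**Figure D3:**
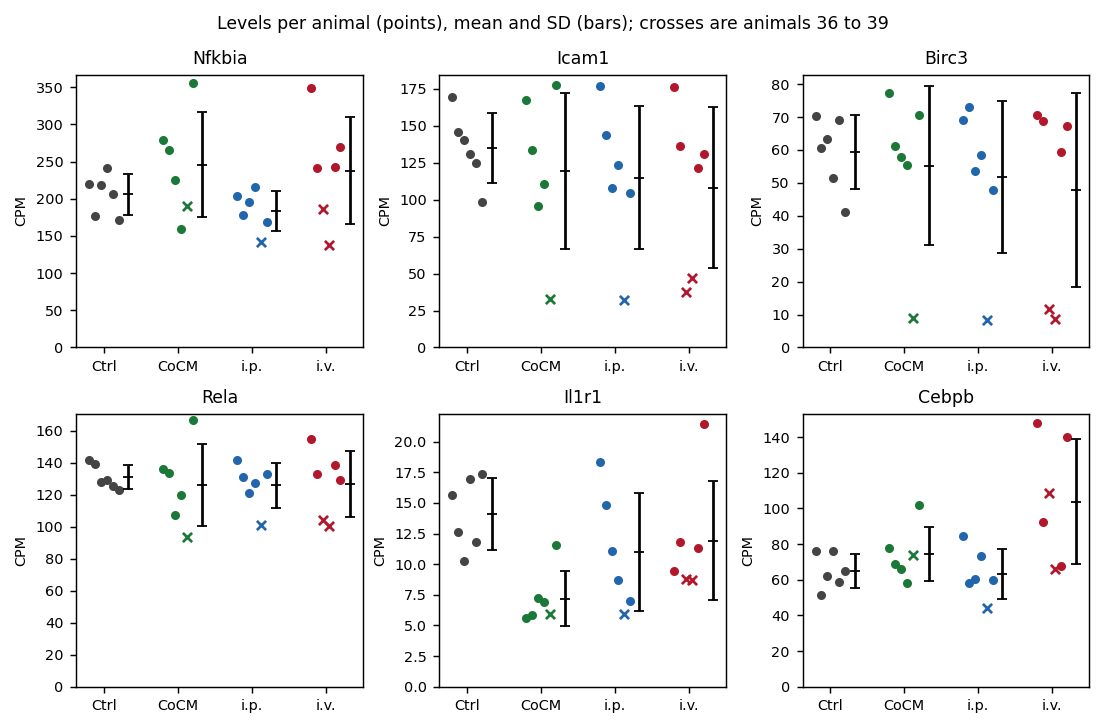
Levels in CPM (axis from 0) of the induced targets Nfkbia, Icam1 and Birc3, the subunit Rela and the members Il1r1 and Cebpb in each animal (points), with the mean and SD of each group of 6 (bars). Crosses mark animals 36 to 39, which hold the lowest values of Icam1 (32.3 to 47.1 CPM) and Birc3 (8.48 to 11.6 CPM), while Nfkbia in them (138 to 190 CPM) reached into the range of the other animals.

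The induced targets were set beside the components by their medians. The median log2 fold change of the 3 targets was -0.10 in CoCM, -0.19 with i.p. cells and -0.31 in i.v., and that of the 33 components was -0.11, -0.09 and -0.14. The median of the 7 receptors was -0.61, -0.31 and -0.30, and that of the 9 adaptors -0.17, -0.05 and -0.06. The targets without the 4 libraries had medians of 0.11, -0.03 and 0.16 and the components -0.04, 0.01 and 0.05. The receptors then had -0.38, -0.12 and -0.003. A wider list of 25 further induced targets, described below, had medians of -0.20, -0.15 and -0.32 over all animals. Without the 4 libraries its medians were -0.07, -0.05 and -0.05, with 16, 13 and 16 of the 25 below Ctrl, so the 3 targets do not stand for induced genes in general. Over all animals Nfkbia differed in sign from Icam1 and Birc3 in CoCM and i.v., so there the median of the 3 targets does not stand for each of them. Without the 4 libraries all 3 were above Ctrl in CoCM and i.v. The difference between the sets was not tested, since their genes are not replicates and the components include induced genes.

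Across animals Icam1 varied together with Birc3 and with Nfkbia, while the pair of Nfkbia and Birc3 was not settled. Among the 20 animals of the main cluster, after the mean of each group was removed from log2 CPM, Icam1 and Birc3 had a Pearson r of 0.804 (permutation p of 3e-05, adjusted over 3 pairs 9e-05) and a Spearman rho of 0.786 (permutation p of 6e-05, adjusted 0.00018). Nfkbia and Icam1 had r of 0.641 (permutation p of 0.00198, adjusted 0.00297) and rho of 0.651 (permutation p of 0.00227, adjusted 0.0034). Nfkbia and Birc3 had r of 0.454 (permutation p of 0.0433, adjusted 0.0433) and rho of 0.469 (permutation p of 0.0379, adjusted 0.0379). The permutation p-values make no allowance for the group means removed beforehand, so all of them are too small. For Nfkbia with Birc3, the weakest pair, they therefore cannot decide whether the genes varied together. Leaving out the 2 animals farthest from the median of the gene on the x axis gave r of 0.816, 0.586 and 0.40 in the same order. These are whole-kidney values, and shared variation in cell types between animals was not tested. No value is given over all 24 animals, because they form separate clusters.

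**Figure D4:**
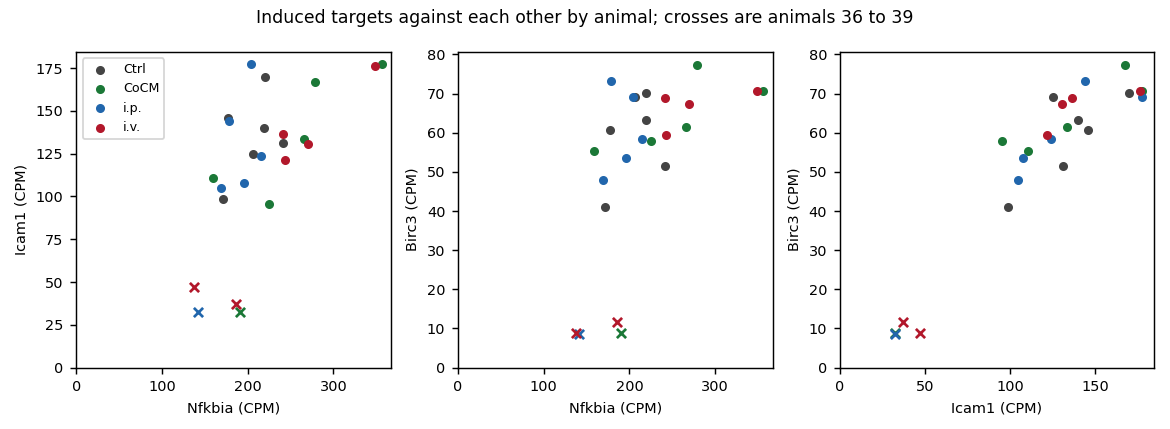
Each induced target against another in CPM, with a point for each animal coloured by group and crosses for animals 36 to 39. Among the 20 animals drawn as points Icam1 with Birc3 had the highest r (0.804), computed on log2 CPM with group means removed and not on the values drawn. The crosses lie apart at low Icam1 and low Birc3 but not at low Nfkbia alone.

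Genes that NF-kappa B and cytokine signalling induce further downstream included the second gene with an unadjusted p under 0.05. Cebpb, a transcription factor of the acute phase response, had lowest, median and highest levels of 51.2, 63.6 and 76.1 CPM in Ctrl, 58.0, 71.3 and 102 CPM in CoCM, 44.1, 59.9 and 84.7 CPM with i.p. cells and 65.9, 100 and 148 CPM in i.v. In the i.v. group 4 of 6 animals lay above the Ctrl range, among them animal 36. The log2 fold change in i.v. was 0.68 ± 0.19 (SE), with an unadjusted p of 0.00183 and an adjusted p of 0.673 by edgeR. It was 0.79 ± 0.19 without the 4 libraries, still with an adjusted p near 1. Cebpb is also an immediate response gene of stressed tissue. Beside it, all 8 genes of an immediate early list were higher in value in i.v. than in Ctrl, 3 of them with an unadjusted p under 0.05 (Jun at 0.49, Fosb at 1.41 and Dusp1 at 0.73 on the log2 scale), where 47.4% of all genes were lower and 5.78% had such a p. All 8 were again higher without the 4 libraries, and the 3 with such a p were Fosb, Jun and Atf3. Their sum was 1039 to 1341 CPM in i.v. and 704 to 1327 CPM in Ctrl, and their part in the value of Cebpb was not tested. Socs3, an inhibitor of cytokine receptor signalling, had log2 fold changes of -0.60 ± 0.61, 0.09 ± 0.60 and -0.22 ± 0.60, and without the 4 libraries -0.37 ± 0.25, 0.34 ± 0.25 and 0.29 ± 0.27, above Ctrl in i.v. in place of below.

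The routes were compared directly, i.p. against i.v. Here 16 of 36 members had a log2 fold change below 0 (44.4%, against 50.2% of all genes), with a median of 0.04. Cebpb was lower in i.p. by a log2 difference of -0.71 ± 0.19 (unadjusted p of 0.00121, adjusted p of 1.0 by edgeR), and Nfkbia by -0.37 ± 0.19 (unadjusted p of 0.0635). All 8 immediate early genes were lower in value in i.p. than in i.v. as well. Without the 4 libraries 27 of 36 members were below 0 (75.0%, against 50.1% of all genes). Unadjusted p was then under 0.05 for Cebpb, Nfkbia (-0.51 ± 0.17) and Map3k8 (-0.39 ± 0.17), 3 members where 1.13% of all genes had such a p, and 0 members passed after adjustment by edgeR.

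The libraries that stood apart were low for many genes of the pathway. In 22 of the 36 members all 4 libraries lay below all the other 20 animals, as did 14.2% of all genes tested. By role these were all 3 subunits, both ligands tested, 5 of 7 receptors, 4 of 6 kinases, 3 of 4 inhibitors, 2 of 3 induced targets, 2 of 9 adaptors and 1 of the 2 genes further downstream, Socs3 but not Cebpb. Chuk was the only member above the other animals, at 106 to 145 CPM against 55.3 to 102 CPM, as were 10% of all genes. The libraries were chosen on all genes, members included, so these ranges describe them and were not tested.

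Socs3 and Bcl3 were among the most distant. Socs3 had 2.16 to 4.84 CPM in the 4 libraries and 20.4 to 67.0 CPM in the others, and Bcl3 had 6.42 to 12.5 CPM against 47.2 to 90.2 CPM. Birc3 had 8.48 to 11.6 CPM against 41.1 to 77.3 CPM, Icam1 32.3 to 47.1 CPM against 95.4 to 177 CPM, and Nfkbiz 11.9 to 18.1 CPM against 39.8 to 86.5 CPM. The TNF receptor Tnfrsf1a, which most cells of the kidney carry, had 64.4 to 75.3 CPM against 132 to 234 CPM, and Traf1 2.30 to 3.62 CPM against 9.89 to 21.5 CPM. For Rela the ranges almost met, at 93.9 to 104 CPM against 107 to 167 CPM, and for Il1b the gap was smaller still. Nfkbia, at 138 to 190 CPM against 159 to 356 CPM, and 7 of the 9 adaptors overlapped the other animals. In the same 4 libraries 0 of the 6 endothelial markers and 0 of the 8 immediate early genes lay below the others, whereas 12 of 12 macrophage, 10 of 11 lymphocyte and 5 of 8 injured tubule markers did. So did 3 of 7 fibroblast and 1 of 6 neutrophil markers. The fibroblast sum was 368 to 628 CPM in the 4 libraries against 677 to 2535 CPM.

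**Figure D5:**
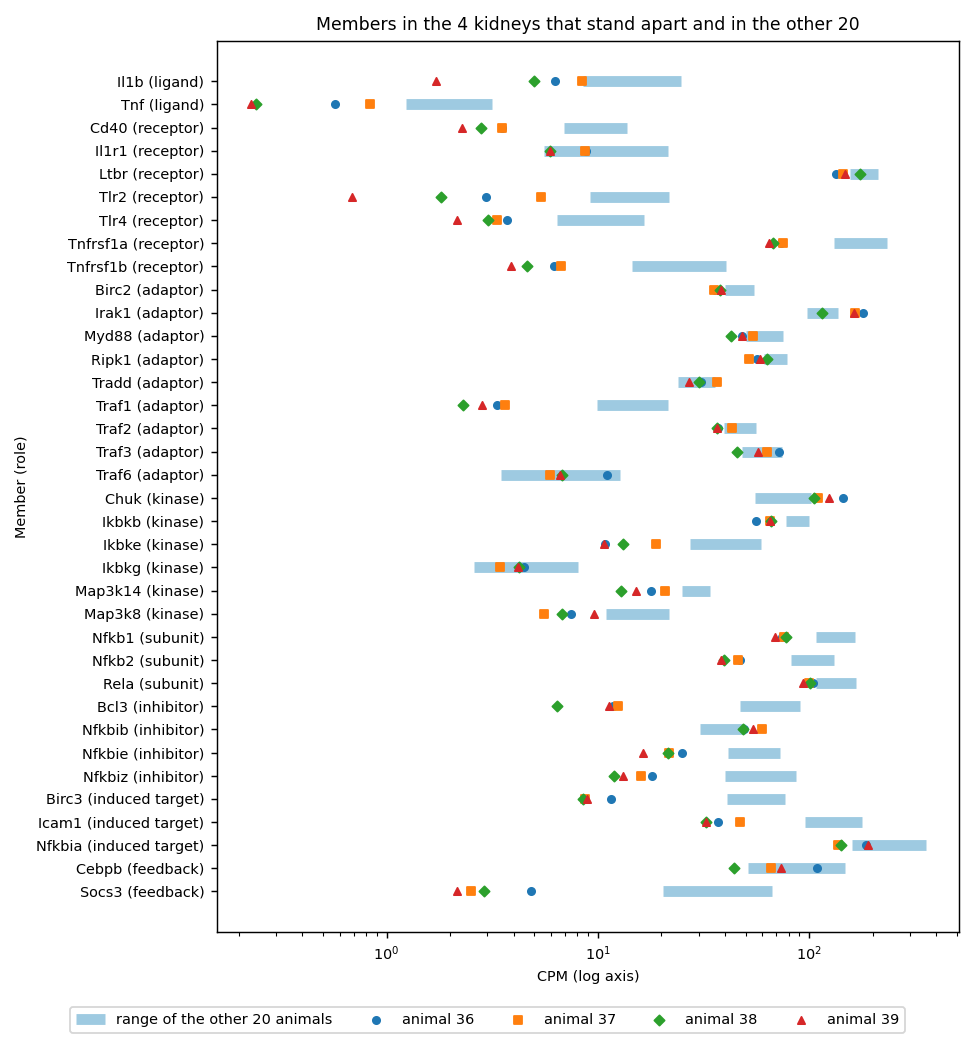
Levels of the 36 members tested in CPM (log axis) in animals 36, 37, 38 and 39 (symbols) and the range of the other 20 animals (bars). Socs3, Bcl3, Birc3 and Tlr2 lie well to the left of the bar, Chuk lies to the right of it, and most adaptors lie on it.

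From a wider list of other genes of these pathways 52 were tested. Below Ctrl were 40 of them in CoCM (76.9%, against 48.6% of all genes), 39 with i.p. cells (75.0%, against 49%) and 42 in i.v. (80.8%, against 47.4%), and without the 4 libraries 36 (69.2%), 36 (69.2%) and 33 (63.5%). In CoCM 2 had an unadjusted p under 0.05 (11.9% of all genes had), Tab2, an adaptor of the TAK1 kinase, at -0.29 ± 0.08 with all CoCM animals below all Ctrl animals (as for 0.524% of all genes), and Traf4 at 0.26 ± 0.09. Traf4 was also above Ctrl in i.p. (0.24 ± 0.09) and in i.v. (0.30 ± 0.09), comparisons that share the Ctrl animals, and Tank, which binds TRAF proteins, was at -0.38 ± 0.17 in i.v. That is 1 gene in i.p., where 1.77% of all genes had such a p, and 2 in i.v., where 5.78% had. Without the 4 libraries the numbers were 9, 3 and 1 (16.9%, 1.39% and 1.23% of all genes), with Tab2 at -0.29 ± 0.09 and Traf4 at 0.20 ± 0.07 in CoCM. Between the routes Irak2 was at -0.26 ± 0.10. No adjusted p of these genes was under 0.05 by edgeR. Of 25 further induced targets tested, 0 had an unadjusted p under 0.05 in CoCM, 0 with i.p. cells and 2 in i.v. (against 5.78% of all genes), the kinase Pim2 at 0.34 ± 0.13 and the chemokine Ccl5 at -0.84 ± 0.40, neither with such a p without the 4 libraries (0.13 ± 0.10 and -0.56 ± 0.39). The 12 macrophage markers were all lower in value in each treated group, with medians of -0.39, -0.48 and -0.52 and 0 with an unadjusted p under 0.05, and the 11 lymphocyte markers had medians of -0.12, -0.33 and -0.46. The medians without the 4 libraries were -0.16, -0.27 and -0.11 for the macrophage markers, of which 10, 12 and 12 were lower, and 0.11, -0.09 and 0.05 for the lymphocyte markers. The sum of the macrophage markers without the 4 libraries was 1231 to 3097 CPM in CoCM, 1382 to 2359 CPM with i.p. cells and 1436 to 2695 CPM in i.v., within or just below the 1293 to 3263 CPM of Ctrl.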

How the data were processed

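Per the labels, the authors trimmed reads with Trim Galore 0.6.4 and quantified them with kallisto 0.4.6 against build rn6, and deposited an estimated count and a TPM for each Entrez gene and library. The study's methods name a human gene package, which was not reconciled with the rat identifiers. Of the estimated counts deposited by the authors, 86.4% to 87.3% were whole, and all were rounded before testing. TPM values deposited by the authors summed to 964191 to 976409 per library and were used only to compare genes.

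Genes were tested in R 4.3.3 with edgeR 4.0.16 (filterByExpr, TMM, glmQLFit and glmQLFTest) in a single fit of all 24 libraries, with Benjamini-Hochberg adjustment over the 12778 genes that passed the filter and a threshold of 0.05. DESeq2 1.42.0 was an alternative. CPM use the TMM scaling, and log2 CPM a prior count of 2. The fit gave a common biological coefficient of variation of 0.299. Symbols were taken from RefSeq, which matched 17179 of 17334 genes. Of the 6 pairs of induced targets planned 3 were run, since Tnfaip3 was not analysed here. The scripts were tested on simulated data.

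Alternatives were other size factors, no filter, only the groups compared, leaving out each animal, and leaving out the 4 libraries that stood apart, the last chosen after seeing the data. Values in all groups were given for the induced targets and for members with an unadjusted p under 0.05, and other members by role. Further members were shown by group after their values were seen. The members and gene lists were chosen with earlier results of these data known. Each library came from a separate rat.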

Additional observations from a re-analysis of the deposited data

Results flagged for a closer look

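Within groups of 6 animals, 3 values lay far from the rest, judged by the gap to the nearest animal over the range of the group, against the critical value of Dixon for that size, in 20 groups of the 5 genes described most closely. About 1 in 20 groups passes by chance. Birc3 was at 8.88 CPM in CoCM animal 39, where the next animal had 55.4 CPM (gap over range 0.68). Il1r1 was at 11.59 CPM in CoCM animal 40, where the next had 7.24 CPM (0.722), and at 21.44 CPM in ivABCB5 animal 43, where the next had 11.79 CPM (0.76). Over all 36 members tested, 10 of 144 combinations of gene and group passed the same value.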

How the results depend on the processing

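The count of 0 members called did not change under any alternative run. Without the 4 libraries that stood apart, the median over the members in ivABCB5 against Ctrl moved to 0.0691, and directions turned for Icam1 in CoCM (0.014) and ivABCB5 (0.0632), for Birc3 in CoCM (0.1128), ipABCB5 (0.0346) and ivABCB5 (0.1646), and between the routes for Icam1 (-0.0939) and Birc3 (-0.1299), all on the log2 scale and none past the test. Over all 36 members the direction turned for 10 in CoCM, 12 in ipABCB5, 20 in ivABCB5 and 11 between the routes, among them Nfkb2 and Rela in all comparisons with Ctrl, and Socs3, Bcl3 and Nfkb1 in ivABCB5. Members with an unadjusted p under 0.05 in CoCM numbered 1 in the main analysis (11.9% of all genes had such a p) and 6 without the 4 libraries (16.9% of all genes). They numbered 3 by DESeq2, 3 with median-ratio size factors, 2 without a filter and 6 with only the compared groups. For these settings the share of all genes was not computed, so the counts are not read as a gain among the members. Without the 4 libraries they numbered 2 in ivABCB5 (1.23% of all genes), 3 between the routes (1.13%) and 6 over the 4 groups, where the share was not computed. Leaving out each animal in turn gave 0 called members throughout, and medians of -0.1798 to -0.0036 in CoCM, -0.1746 to -0.0001 in ipABCB5, -0.2055 to -0.0421 in ivABCB5 and -0.0802 to 0.1117 between the routes. Over the same fits Icam1 ranged from -0.323 to 0.0223 in CoCM and from -0.0919 to 0.2922 between the routes, and Birc3 from -0.2202 to 0.1234 in CoCM, -0.3213 to 0.0265 in ipABCB5 and -0.0998 to 0.3388 between the routes. No paired analysis was possible because no animal number occurred in more than 1 group. Depth limits statements on Il6 and Tnf.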
